A study of Homo sapiens with 24 samples.

Results

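The genes described here are 35 markers of absorptive enterocytes and colonocytes, chosen by name as a marker list for these cell types and found among the 58051 gene identifiers of the count files. The choice was made with earlier results of these data known. All 35 symbols matched 1 identifier each. They were followed through 24 RNA-seq libraries from HT29, HCT116 and SW480, 3 established human colorectal cancer cell lines, to ask how the absorptive program of these lines behaved when β-CATENIN was lost. In each line, clones with intact CTNNB1 (WT, CTNNB1+/+) were compared with clones in which CRISPR/Cas9 had deleted an exon on both alleles of this gene for β-CATENIN (KO, CTNNB1-/-). The WT clones had gone through the same exposure to CRISPR and the same cloning. HT29 and SW480 carry inactivating APC mutations, HCT116 carries a gain-of-function mutation of CTNNB1 itself, and SW480 KO clones were described by the study as turning senescent in long culture. The clones were WT 11, WT 40, KO 28 and KO 38 for HT29, WT 4, WT 6, KO 44 and KO 47 for HCT116, and WT 4, WT 5, KO 17 and KO 21 for SW480. Each clone grew from a single cell and was sequenced in rounds A and B, which gives 4 libraries but 2 clones per line and genotype. Libraries carry the clone's number and the letter of the round (KO 28A).

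Absorptive cells line the villi of the small intestine and the upper crypts and surface of the colon. Their apical membrane forms a brush border of microvilli, which is built on actin bundlers such as VIL1 and on cadherins that link the microvillar tips, and it carries hydrolases, transporters and carbonic anhydrases. Fat uptake and lipoprotein assembly belong mainly to the small intestine, whereas water channels, chloride exchange and guanylin peptides are known from the colon surface. WNT/β-CATENIN signalling is active at the crypt base and falls off as cells differentiate along the absorptive lineage.

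Each library held between 22297049 and 29068378 reads on genes. The values used are normalised counts, which are the read counts of a gene divided by a size factor of the library. CTNNB1 itself was at 5883 to 6113 normalised counts in HT29 WT and 256 to 337 in HT29 KO libraries, at 10512 to 12800 and 187 to 255 in HCT116, and at 43114 to 50939 and 839 to 1312 in SW480. Every library thus matched the genotype in its label, whereas clone and round were not checked by these levels. The library HCT116 KO 47A stood apart, with 35449 genes above 0 against 20256 to 24944 in the other 23 libraries. Of a list of 8 colorectal epithelial identity genes (EPCAM, CDH1, KRT8, KRT18, KRT19, CDX2, VIL1 and CDH17), 7 were measurable in HT29, 6 in HCT116 and 7 in SW480. CDH17 counted as measurable in HT29 through its KO libraries alone, and VIL1 is also one of the members described here. Of 6 hepatocyte markers, a cell type that shares the lipoprotein genes, 2, 1 and 1 were measurable.

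A member was taken as measurable in a line, and tested there, if it reached 10 normalised counts in at least 4 of the 8 libraries. By this measure 17 members were measurable in HT29, 9 in HCT116 and 10 in SW480, which makes 36 pairs of member and line. VILL, USH1C, CA12, CA13 and SLC26A2 were measurable in all 3 lines. VIL1, CDHR2, DPP4, AADAC, CA2 and PLAC8 were measurable in 2 lines. CDHR5, LGALS4, TMPRSS2, FABP1, SLC5A1, GUCA2A and PHGR1 were measurable in HT29 only, and ANPEP and GUCY2C in SW480 only. In the remaining 15 members no line passed, and 11, 8 and 13 of the 35 members had 3 reads or fewer in every library of HT29, HCT116 and SW480, respectively.

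**Figure D1:**
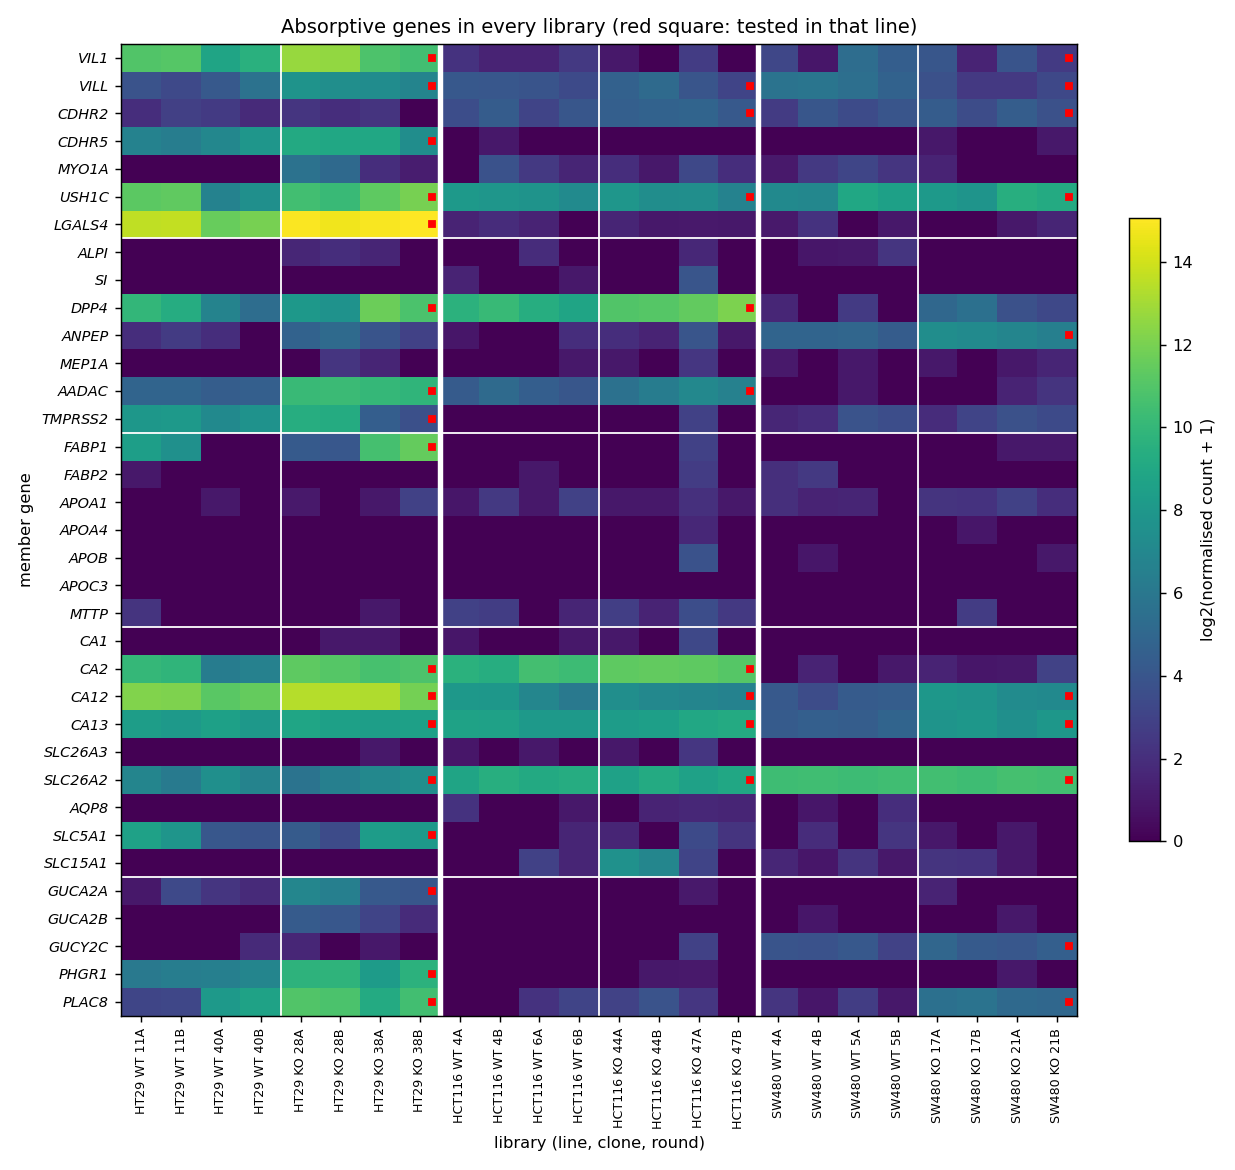
Level of each of the 35 members (rows, grouped by role) in each of the 24 libraries (columns, ordered by line, genotype, clone and round) as log2 of the normalised count plus 1, with a red square where the member was measurable in the line. LGALS4 in HT29 KO libraries is the brightest row, at 27378 to 34041 normalised counts, and the rows from FABP2 to MTTP stay dark in all lines.

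Members were compared between KO and WT within a line by limma on log2 of the normalised count plus 1, fitted over all genes that passed the same filter. A differentially expressed gene (DEG) had a Benjamini-Hochberg adjusted p under 0.05 and an absolute log2 fold change over 1. In HT29, 4 of 17 members were DEGs, and all 4 were higher in KO clones, whereas 2.3% of all 14921 genes tested were DEGs and 1.9% were DEGs higher in KO. In HCT116, 3 of 9 members were DEGs, all higher in KO, against 5.06% of 15404 genes and 3.17% higher in KO. In SW480, 4 of 10 members were higher in KO and 1 was lower, against 10.7% and 6.76% of 16325 genes. In all, 10 of the 35 members were DEGs in at least 1 line, 2 in 2 lines and none in 3 lines. The tested members had median log2 fold changes of 1.80, 0.37 and 0.75 in HT29, HCT116 and SW480, whereas the medians of all tested genes were 0.031, −0.014 and −0.0042. PLAC8 in SW480 and GUCA2A in HT29 passed the filter through their KO libraries alone, so that these shares and medians are descriptions of the measurable members and not of the list of 35. Clones of 1 genotype are few, and p-values that treat both rounds of a clone as replicates are smaller than the clones alone would give. When the reads of each clone were summed and 2 clones were compared with 2, limma found 0 DEGs among the members in HT29 (7 at an unadjusted p under 0.05, and 0 DEGs among all genes), 1 in HCT116 and 5 in SW480. Over all genes, 889 of 14921 were at an unadjusted p under 0.05 in HT29 in this fit. DEGs numbered 349 of 15404 genes in HCT116 and 2398 of 16325 in SW480.

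**Figure D2:**
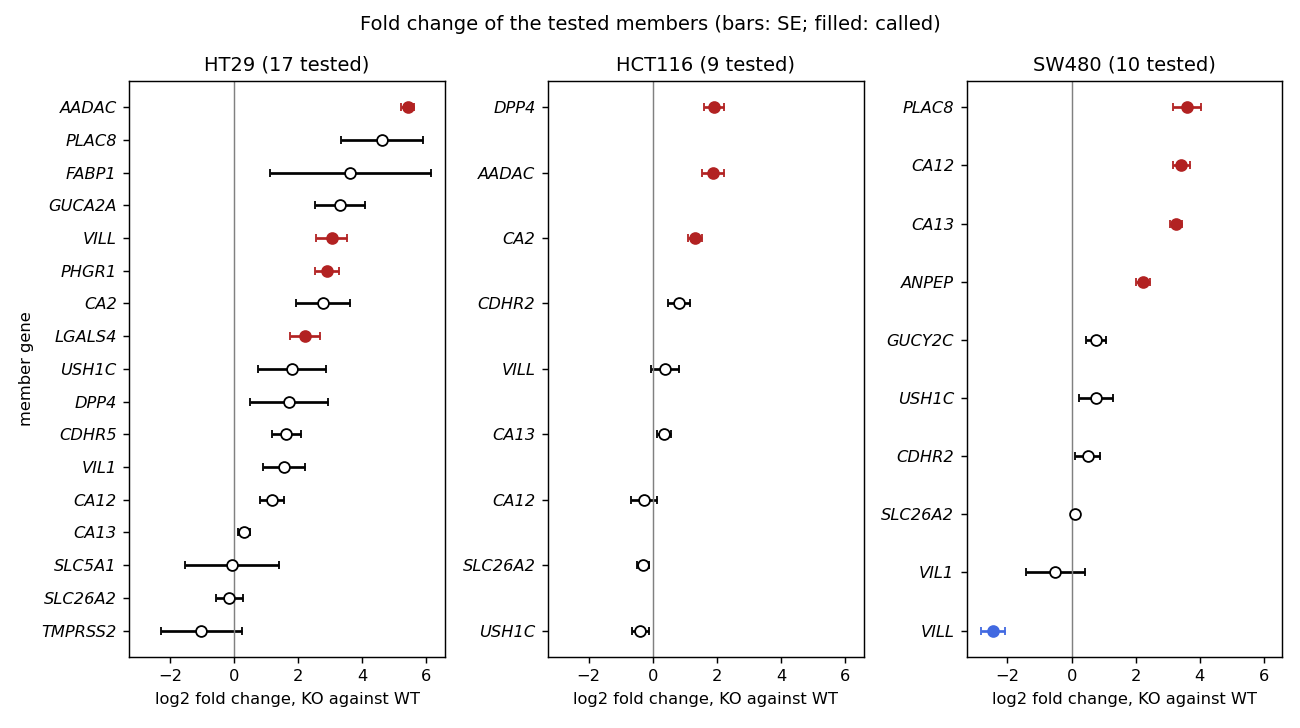
Log2 fold change of KO against WT (x axis) for every measurable member in HT29, HCT116 and SW480, with bars for the SE and filled symbols for DEGs (red higher in KO, blue lower). In HT29, 14 of 17 members lie to the right of 0, with long bars for FABP1, SLC5A1, PLAC8 and TMPRSS2, and VILL lies to the right in HT29 and to the left in SW480.

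AADAC, an arylacetamide deacetylase of the endoplasmic reticulum known from liver and small intestine, was the member with the largest log2 fold change in HT29 and the only one that was a DEG higher in KO in 2 lines. In HT29 it was at 27.8 and 27.4 normalised counts in WT 11A and WT 11B, at 20.7 and 22.5 in WT 40A and WT 40B, at 1161 and 1214 in KO 28A and KO 28B, and at 1055 and 933 in KO 38A and KO 38B. Both WT clones were low, both KO clones were high, and the groups lay far apart, with means of 24.6 ± 3.52 and 1091 ± 124 (SD, n = 4). The log2 fold change was 5.42 ± 0.20 (SE, adjusted p = 4.6e-06 in limma). In HCT116 AADAC was at 19.3, 36.2, 21.3 and 15.2 in WT 4A, WT 4B, WT 6A and WT 6B and at 47.2, 80.1, 131 and 95.2 in KO 44A, KO 44B, KO 47A and KO 47B. The groups did not overlap, and the log2 fold change was 1.88 ± 0.35 (adjusted p = 0.00505). In both lines the rise held when the clone was taken as a random effect (adjusted p = 2.5e-05 and 0.0213), and with summed clones in HCT116 (0.0431) but not in HT29 (0.0908). Without clone WT 6 the HCT116 call was lost (adjusted p = 0.0642). In SW480 AADAC had at most 3.84 normalised counts in any library and was not tested. The gene lies on chromosome 3 from 151531861 to 151546276 on the plus strand of GRCh37.

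The bases before the start of AADAC and VILL are shown because these were the 2 members that were DEGs in 2 lines. They are the 250 bases upstream of a start site in RefSeq's annotation, on the plus strand of GRCh38.p14 (chr3:151813866-151814115 for AADAC and chr3:37987728-37987977 for the most upstream of 3 VILL starts), a build that differs from the GRCh37 of the counts. Capitals mark matches on either strand to TTTATNG, a motif of CDX factors, and to AGATAA, a motif of GATA factors.
AADAC: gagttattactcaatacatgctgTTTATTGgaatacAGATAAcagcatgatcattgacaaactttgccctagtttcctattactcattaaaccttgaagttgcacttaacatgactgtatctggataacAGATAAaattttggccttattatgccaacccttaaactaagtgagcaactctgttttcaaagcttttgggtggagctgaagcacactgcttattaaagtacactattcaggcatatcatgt
VILL: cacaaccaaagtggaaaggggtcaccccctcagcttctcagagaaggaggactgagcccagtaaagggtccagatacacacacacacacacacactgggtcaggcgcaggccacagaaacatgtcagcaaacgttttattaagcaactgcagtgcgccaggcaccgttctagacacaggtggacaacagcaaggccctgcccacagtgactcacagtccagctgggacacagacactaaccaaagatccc
The AADAC window held 1 CDX motif and 2 GATA motifs, and none of the motifs described here was found in any of the 3 VILL windows. The AADAC start opens the canonical transcript of its gene, whereas none of the 3 VILL starts does, so that the windows are not alike. Of all 35116 windows of this length, 8.93% held the CDX motif and 9.17% the GATA motif. The TCF/LEF motif CTTTGAT was in 2.26% of all windows, and among the 23 members with a window it was in those of SI and SLC26A3, both of which had almost no reads here. The HNF4 motif CAAAGTCCA was in 0.325% of windows, and among the members in that of MYO1A. CDX motifs were found for AADAC, AQP8, CA12, FABP1, MTTP, MYO1A and SI, and GATA motifs for AADAC, FABP2, GUCA2A, MTTP and PLAC8. A match describes the letters of the window and is no evidence of binding.

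The brush border and secreted hydrolases differed in where they were expressed. DPP4, a dipeptidyl peptidase that trims peptides at the cell surface, was at 822, 1116, 659 and 437 normalised counts in HCT116 WT 4A, WT 4B, WT 6A and WT 6B and at 2018 and 2141 in KO 44A and KO 44B and 2797 and 4364 in KO 47A and KO 47B. All KO libraries were above all WT libraries, and DPP4 was higher in KO by 1.91 ± 0.31 on the log2 scale (adjusted p = 0.00389, and 0.121 with summed clones, which ends the call). In HT29 the same gene went with the clone. It was at 982 and 628 in WT 11A and WT 11B and at 104 and 41.3 in WT 40A and WT 40B, and at 256 and 204 in KO 28A and KO 28B and 3310 and 1801 in KO 38A and KO 38B. WT 11 thus lay above KO 28, and DPP4 was no DEG in HT29 (log2 fold change 1.71 ± 1.21, adjusted p = 0.506). In SW480 DPP4 was at 0 to 4.83 in WT and at 32.0, 45.9, 12.1 and 8.64 in KO 17A, KO 17B, KO 21A and KO 21B, just below the filter.

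ANPEP, the aminopeptidase N of the brush border, was measurable in SW480 only. There it was at 28.3, 27.6, 29.9 and 19.6 normalised counts in WT 4A, WT 4B, WT 5A and WT 5B and at 166, 147, 115 and 90.2 in KO 17A, KO 17B, KO 21A and KO 21B. The groups did not overlap, and the log2 fold change was 2.23 ± 0.23 (adjusted p = 2.1e-05). In HT29, ANPEP reached 26.2 and 36.2 in KO 28A and KO 28B and stayed at 5.07 or less in WT libraries, and in HCT116 the highest value was 15.0, in KO 47A.

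TMPRSS2, a serine protease of the cell surface, was measurable in HT29 only, and its KO clones went opposite ways. It was at 138 to 288 normalised counts in the WT libraries, at 661 and 621 in KO 28A and KO 28B, and at 21.8 and 11.7 in KO 38A and KO 38B. KO 28 was above and KO 38 below every WT library, and the log2 fold change of −1.02 ± 1.27 (adjusted p = 0.711) describes neither clone. ALPI (intestinal alkaline phosphatase), SI (sucrase-isomaltase) and MEP1A (a meprin subunit), the other hydrolases, were measurable in no line. ALPI and MEP1A had at most 3.91 and 4.28 normalised counts in any library, and SI had 15.0 in HCT116 KO 47A and at most 1.83 elsewhere.

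Among the members for the cytoskeleton and adhesion of the brush border, 2 of 5 tested were higher in HT29 KO clones (1.9% of all genes), none of 3 was a DEG in HCT116 (1 at an unadjusted p under 0.05, and 0 by edgeR or DESeq2), and 1 of 4 was lower in SW480 KO clones (6.76% of all genes). VILL, a villin-like actin-binding protein, moved in opposite directions. In HT29 it was at 13.4, 9.12, 17.8 and 50.1 normalised counts in WT 11A, WT 11B, WT 40A and WT 40B and at 208, 175, 161 and 109 in KO 28A, KO 28B, KO 38A and KO 38B. The KO libraries were all higher, and the log2 fold change was 3.05 ± 0.49 (adjusted p = 0.0161), but the call was lost with the clone as a random effect (0.0822), with summed clones (0.508) and without any one of KO 28A, KO 28B, KO 38A, WT 11A or WT 40A (0.0530 to 0.0654). In SW480 VILL was at 51.5, 57.9, 43.4 and 25.4 in WT 4A, WT 4B, WT 5A and WT 5B and at 12.2, 4.59, 4.67 and 8.64 in KO 17A, KO 17B, KO 21A and KO 21B. Here the KO libraries were all lower, with a log2 fold change of −2.45 ± 0.37 (adjusted p = 3.1e-04, and 0.00812 with summed clones). In HCT116 the groups overlapped, at 9.52 to 16.5 in WT and 7.61 to 35.8 in KO (log2 fold change 0.37 ± 0.44, adjusted p = 0.617). The gene lies on chromosome 3 from 38029550 to 38048679 on the plus strand of GRCh37.

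LGALS4, a galectin that organizes glycolipid rafts of the brush border, was measurable in HT29 only and there had the highest level per kb of exon of all members. It was at 12465 and 13219 normalised counts in WT 11A and WT 11B, at 3057 and 4042 in WT 40A and WT 40B, at 32433 and 27378 in KO 28A and KO 28B, and at 30874 and 34041 in KO 38A and KO 38B. The KO clones were alike and high, and the WT clones differed from each other. LGALS4 was higher in KO by 2.21 ± 0.46 on the log2 scale (adjusted p = 0.0441), which of the 4 DEGs lay closest to the threshold. The call was lost in 15 of 21 alternatives, among them edgeR (0.0763), the clone as a random effect (0.0898), a block for the round (0.0817) and 7 of the 8 fits that left out 1 library. In HCT116 and SW480 LGALS4 had at most 3.68 normalised counts in any library.

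VIL1, the villin that bundles microvillar actin, was at 6740 and 6316 normalised counts in HT29 KO 28A and KO 28B, but KO 38A and KO 38B, at 1812 and 1431, were below WT 11A and WT 11B, at 1977 and 2149, and above WT 40A and WT 40B, at 449 and 764. The log2 fold change was 1.56 ± 0.67 (adjusted p = 0.290). In SW480 VIL1 had 0.92 to 40.5 in WT and 1.83 to 15.0 in KO libraries, and in HCT116 at most 5.35. A share of 44.2% of its exon length overlaps USP37 on the opposite strand, and libraries without strand cannot tell the 2 genes apart.

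CDHR5 and CDHR2, the cadherins that join the tips of microvilli, were split between the lines. CDHR5 was measurable in HT29 only, at 81.1 to 238 normalised counts in WT and 169 to 557 in KO libraries (log2 fold change 1.64 ± 0.46, adjusted p = 0.113), and the overlap came from WT 40B and KO 38B. CDHR2 was measurable in HCT116 and SW480. In HCT116 it was at 11.0, 19.5, 7.39 and 15.2 in WT 4A, WT 4B, WT 6A and WT 6B and at 22.6, 25.4, 27.8 and 17.1 in KO 44A, KO 44B, KO 47A and KO 47B, so that KO 47B lay below WT 4B. Its log2 fold change was 0.82 ± 0.34 in HCT116 (adjusted p = 0.135) and 0.50 ± 0.39 in SW480 (adjusted p = 0.315). USH1C, the scaffold that anchors these cadherins, was expressed in every library, between 102 in HT29 WT 40A and 3954 in HT29 KO 38B, and was a DEG in no line. In HT29 its log2 fold change of 1.80 ± 1.06 (adjusted p = 0.434) came from WT 40, at 102 and 178, since WT 11, at 2440 and 2631, lay above KO 28, at 1440 and 1184. MYO1A, a motor protein of microvilli, reached 49.3 and 34.2 in HT29 KO 28A and KO 28B, was at 2.85 and 1.30 in KO 38A and KO 38B, and had no read in the HT29 WT libraries.

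Of 9 members for ion, water and nutrient transport, 5 were tested in HT29, with no DEG (2 at an unadjusted p under 0.05, 0 by edgeR and 1 by DESeq2), 1 of 4 was higher in HCT116 KO clones (3.17% of all genes) and 2 of 3 in SW480 KO clones (10.7%). The carbonic anhydrases, which interconvert carbon dioxide and bicarbonate, gave all 3 of these DEGs. CA2, a cytosolic enzyme, was at 788, 656, 1494 and 1273 normalised counts in HCT116 WT 4A, WT 4B, WT 6A and WT 6B and at 2569, 2720, 2509 and 2156 in KO 44A, KO 44B, KO 47A and KO 47B. The groups did not overlap, and the log2 fold change was 1.32 ± 0.23 (adjusted p = 0.00402, and 0.121 with summed clones, which ends the call), and without clone WT 4 it was 0.85. In HT29 CA2 was at 1062 and 925 in WT 11, 78.0 and 96.5 in WT 40, and 1601 to 2565 in the KO libraries, which again did not overlap with WT, but the log2 fold change of 2.78 ± 0.85 did not pass (adjusted p = 0.142). In SW480 CA2 had at most 6.72 in any library.

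CA12, a carbonic anhydrase of the cell membrane, and CA13, a cytosolic one, were DEGs in SW480 only. CA12 was at 17.2, 10.1, 19.3 and 20.6 normalised counts in SW480 WT 4A, WT 4B, WT 5A and WT 5B and at 245, 217, 151 and 140 in KO 17A, KO 17B, KO 21A and KO 21B, a log2 fold change of 3.42 ± 0.27 (adjusted p = 2.8e-06). CA13 was at 19.2, 23.0, 20.3 and 28.4 in the same WT libraries and at 224, 252, 176 and 252 in the KO libraries, a log2 fold change of 3.26 ± 0.19 (adjusted p = 3.1e-07). Both were far above WT in both KO clones, and both calls held in all 21 alternatives. In HCT116 the log2 fold changes were −0.27 ± 0.40 for CA12 (adjusted p = 0.701) and 0.35 ± 0.22 for CA13 (adjusted p = 0.308). In HT29, where WT levels were far higher than in SW480, CA12 was at 2337 to 4704 in WT and 3778 to 10596 in KO libraries (1.19 ± 0.37, adjusted p = 0.150), and CA13 was at 256 to 376 and 347 to 453 (0.32 ± 0.19, adjusted p = 0.438). CA13, CA1 and CA2 lie in this order on chromosome 8 of GRCh37, from 86132816 to 86393722, with 179895 bases between CA13 and CA2. In SW480 KO clones CA13 was thus raised while CA2 stayed at 0.92 to 6.72 and CA1 had no read, and in HCT116 KO clones CA2 was raised while the CA13 groups overlapped, at 281 to 413 in WT and 315 to 595 in KO.

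SLC26A2, a sulfate transporter, was expressed in every library and was at 1277 to 1414 normalised counts in WT and 1316 to 1555 in KO libraries of SW480 (log2 fold change 0.09 ± 0.07, adjusted p = 0.312). Its log2 fold changes were −0.15 ± 0.42 in HT29 and −0.30 ± 0.18 in HCT116 (adjusted p = 0.882 and 0.275). SLC5A1, the sodium-glucose cotransporter SGLT1, was measurable in HT29 only and went with the clone, at 396 and 232 in WT 11, 15.8 and 13.8 in WT 40, 19.1 and 9.78 in KO 28, and 314 and 277 in KO 38. SLC15A1, the peptide transporter PEPT1, was seen in 1 clone of 12, HCT116 KO 44, at 197 and 118, and had at most 7.49 elsewhere. SLC26A3 (the chloride exchanger of colon surface cells), AQP8 (a water channel) and CA1 were measurable nowhere, with highest values of 4.28, 3.67 and 8.56, those of SLC26A3 and CA1 in HCT116 KO 47A.

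**Figure D3:**
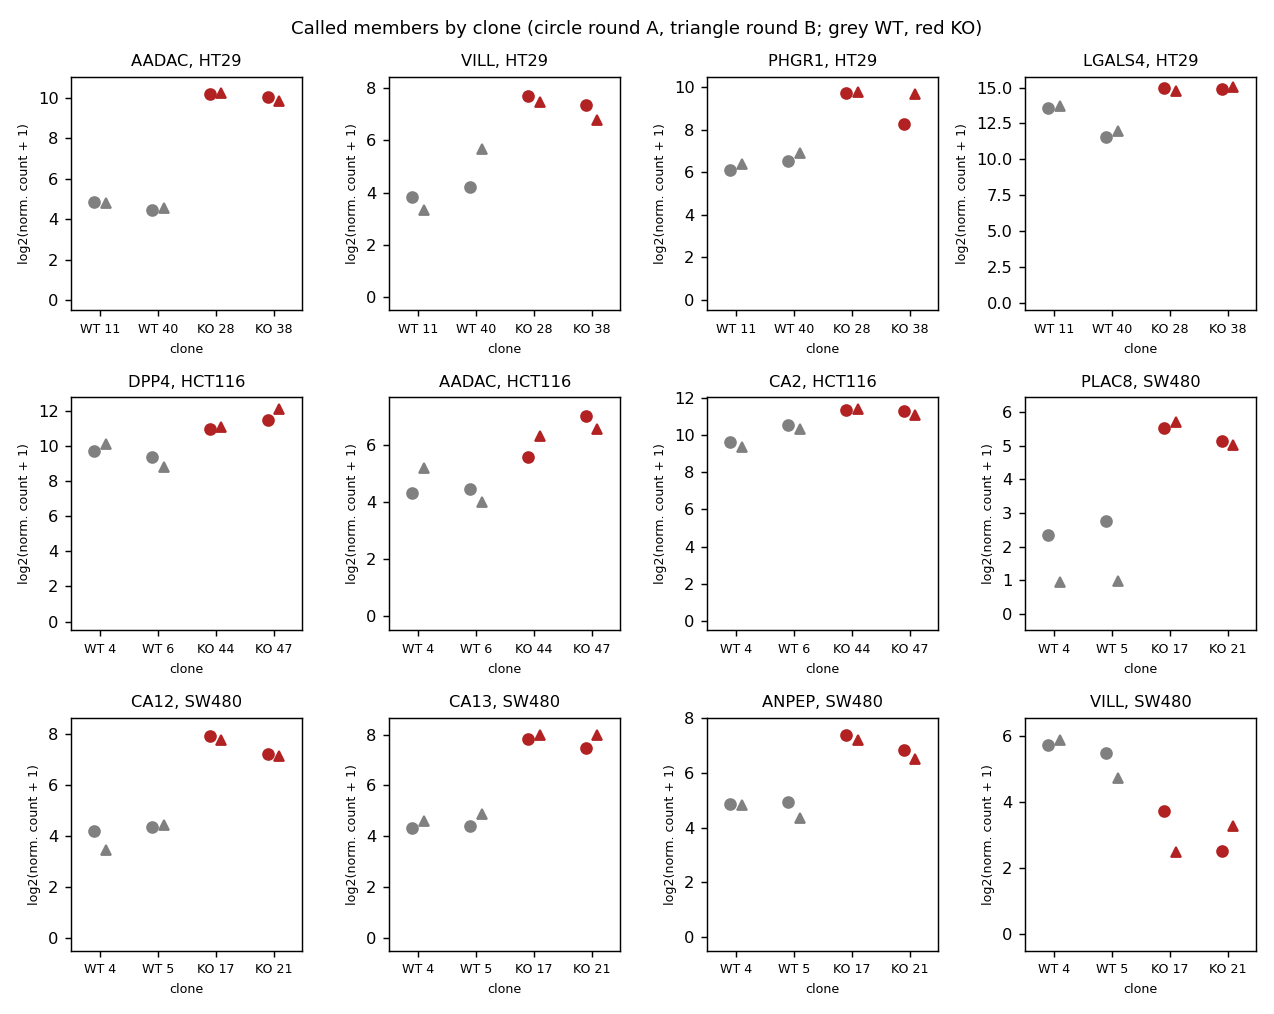
Log2 of the normalised count plus 1 (y axis) for the 12 pairs of member and line that passed as DEGs, by clone (x axis), with WT in grey, KO in red, round A as circles and round B as triangles. In 11 panels both KO clones lie above both WT clones, and in the panel for VILL in SW480 they lie below, from 4.59 to 12.2 normalised counts against 25.4 to 57.9.

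Of the members for guanylin signalling and the remaining markers, 1 of 3 tested in HT29 and 1 of 2 in SW480 were DEGs higher in KO, against 1.9% and 10.7% of all genes, and none was measurable in HCT116. The DEG in SW480 was PLAC8, which passed the filter through its KO libraries alone, as did GUCA2A in HT29. PHGR1, a small protein of intestinal epithelium rich in proline, histidine and glycine, was at 67.2, 81.1, 90.9 and 117 normalised counts in HT29 WT 11A, WT 11B, WT 40A and WT 40B and at 840, 881, 304 and 818 in KO 28A, KO 28B, KO 38A and KO 38B. KO 38A was below the other KO libraries but above all WT libraries. The log2 fold change was 2.89 ± 0.37 (adjusted p = 0.00479), and it passed with the clone as a random effect (0.0405) but not with summed clones (0.288). In HCT116 and SW480 PHGR1 had at most 1.07.

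PLAC8, a small cysteine-rich protein, was at 4.04, 0.92, 5.79 and 0.98 normalised counts in SW480 WT 4A, WT 4B, WT 5A and WT 5B and at 45.1, 51.4, 34.5 and 31.7 in KO 17A, KO 17B, KO 21A and KO 21B. The log2 fold change was 3.60 ± 0.45 (adjusted p = 8.4e-05), for a gene that passed the filter in SW480 through its KO libraries alone. In HT29 PLAC8 was at 7.68 and 8.11 in WT 11, 268 and 408 in WT 40, and 596 to 2022 in KO libraries, which did not overlap with WT, but WT 11 and WT 40 lay so far apart that the log2 fold change of 4.61 ± 1.29 did not pass (adjusted p = 0.113).

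GUCA2A and GUCA2B encode guanylin and uroguanylin, the secreted ligands of the receptor guanylate cyclase C, which GUCY2C encodes. GUCA2A was at 0.96 to 9.12 normalised counts in HT29 WT, at 121 and 89.0 in KO 28A and KO 28B and at 17.1 and 15.6 in KO 38A and KO 38B (log2 fold change 3.30 ± 0.79, adjusted p = 0.0716). GUCA2B, a neighbour of GUCA2A on chromosome 1 with 6870 bases between them, had no read in the HT29 WT libraries and 19.1, 15.7, 7.59 and 2.59 in KO 28A, KO 28B, KO 38A and KO 38B, a mean at least 3.56-fold above a floor of 3 reads per library. It was too low for the filter and was not tested in the main fit. In the limma fit with no filter on low values it was a DEG in HT29 (adjusted p = 0.0165), from few reads. In the other lines GUCA2B had at most 0.93. The receptor was measurable in SW480 instead, at 6.85 to 16.4 in WT and 15.9 to 30.1 in KO (log2 fold change 0.76 ± 0.32, adjusted p = 0.0759), and HT29 had at most 2.51. PLBD1-AS1 on the opposite strand overlaps 12.3% of the exon length of GUCY2C.

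The genes for fat uptake and lipoproteins were almost silent. FABP1, the liver-type fatty acid-binding protein, was the only one of 7 that was measurable, and only in HT29. It was at 343 and 189 normalised counts in WT 11A and WT 11B, 0 in both WT 40 libraries, 18.1 and 15.7 in KO 28A and KO 28B, and 1590 and 2938 in KO 38A and KO 38B. The 4 clones were ordered WT 40, KO 28, WT 11 and KO 38, so that genotypes overlapped (log2 fold change 3.62 ± 2.51, adjusted p = 0.499). FABP2, the intestinal form, had at most 5.35. Of the lipoprotein genes, APOA1 and APOA4 had at most 6.66 and 2.14, APOC3 had no read in any of the 24 libraries, and APOB and the lipid transfer gene MTTP reached 12.8 and 10.7 in HCT116 KO 47A and at most 0.96 and 6.42 elsewhere. For these genes a difference was not detectable at this depth.

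Clones of the same genotype also differed in their levels of the members, above all in HT29. The means of KO 28 and KO 38 lay over 4-fold apart for 6 of 17 members (VIL1, DPP4, TMPRSS2, FABP1, SLC5A1 and GUCA2A), against 5.8% of all genes tested, and those of WT 11 and WT 40 for 6 of 17 (USH1C, DPP4, FABP1, CA2, SLC5A1 and PLAC8), against 4.14%. DPP4, FABP1 and SLC5A1 were in both sets, and for all 3 of them WT 11 was above WT 40 and KO 38 above KO 28. In HCT116, 0 of 9 members had KO or WT clones over 4-fold apart, against 1.12% and 0.493% of genes, and in SW480 it was 0 of 10 for KO and 1 of 10, VIL1, for WT, against 0.949% and 0.441%. Of the sum of squares of the tested members in HT29, 44.1% went with the genotype, 53.2% with the clone inside a genotype and 2.79% with the round. For all tested genes these shares were 31.8%, 51.4% and 16.8%. In HCT116 the genotype held 59.0% for the members and 45.7% for all genes, and in SW480 75.9% and 79.1%. With 2 clones per genotype, variation among single-cell clones and the effect of the knock-out cannot be told apart for such members.

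**Figure D4:**
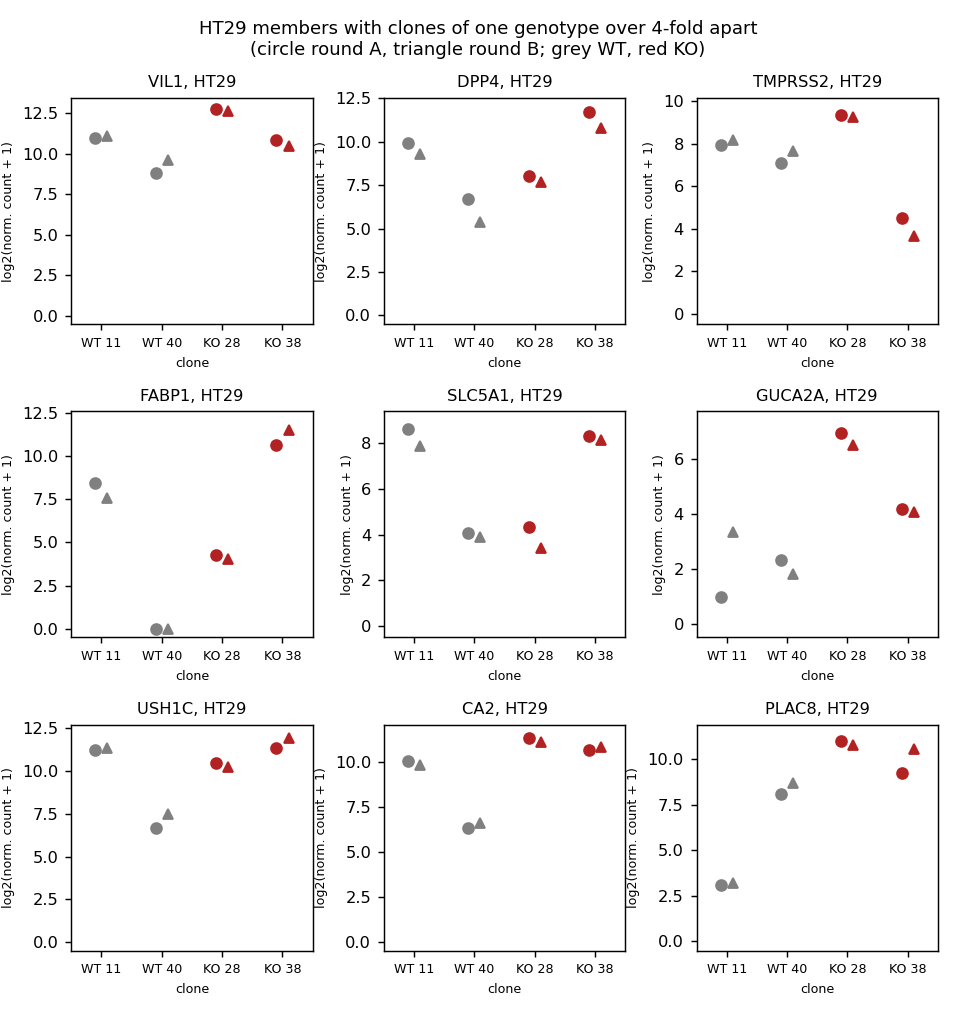
Log2 of the normalised count plus 1 (y axis) in HT29 for the 9 members with WT or KO clones over 4-fold apart, by clone (x axis), with WT in grey, KO in red, round A as circles and round B as triangles. FABP1 runs from 0 in WT 40 to 2938 in KO 38B.

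Groups were further compared by the overlap of their libraries. In HT29, 7 of 17 members had all KO libraries above all WT libraries (AADAC, VILL, PHGR1, LGALS4, CA2, PLAC8 and GUCA2A), against 8.31% of genes with KO higher, and no member had all KO libraries below. In HCT116 it was 3 of 9 (AADAC, DPP4 and CA2), against 10.9%. In SW480, 4 of 10 were separated with KO higher, against 25.3%, and with either direction 5 of 10, close to the 46.2% of all genes. GUCA2A in HT29 and PLAC8 in SW480 passed the filter through their KO libraries alone, which fixed their separation in advance. These shares are therefore descriptions of the measurable members.

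Whether the KO effect differed between lines was tested in a joint limma fit of the 24 libraries, for members that were measurable in both lines of a pair. Between HT29 and HCT116, 2 of 8 such members differed (adjusted p under 0.05), against 7.56% of the genes tested in both. AADAC rose more in HT29, by 3.54 ± 0.60 on the log2 scale (adjusted p = 5.4e-04), and VILL by 2.67 ± 0.65 (adjusted p = 0.0126, and 0.104 with the clone as a random effect). Between HT29 and SW480, 3 of 7 differed, against 14.5%. VILL was higher in HT29 by 5.50 ± 0.65 (adjusted p = 1.9e-06), and CA13 and CA12 were lower by −2.94 ± 0.29 and −2.22 ± 0.55 (adjusted p = 1.5e-07 and 0.00636). Between HCT116 and SW480, 3 of 6 differed, against 12.5%, namely VILL at 2.83 ± 0.65, CA13 at −2.91 ± 0.29 and CA12 at −3.69 ± 0.55 (adjusted p = 0.00419, 2.1e-07 and 4.3e-05). These 3 comparisons share libraries, since each line enters 2 of them.

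The WT levels set the lines apart before any knock-out. Of the 20 members tested in at least 1 line, 13 differed between HT29 and HCT116 WT clones (adjusted p under 0.05 and absolute log2 difference over 1), 10 of them higher in HT29, against 37.3% of all genes that differed. Between HT29 and SW480 19 differed, 14 higher in HT29, against 40%, and between HCT116 and SW480 10 differed, 5 in each direction, against 39.9%. Since 7 of the 20 were measurable in HT29 only and 2 in SW480 only, the filter fixed part of these directions, and the counts are descriptions. PHGR1 had 88.9 ± 20.8 normalised counts in HT29 WT (SD, n = 4) and no read in WT libraries of the other lines, at least 31.9-fold higher than the floor of 3 reads per library in HCT116 and 30.6-fold in SW480. CDHR5 was at 136 ± 70.2 in HT29 WT, at least 46.8-fold above the floor in SW480. CA12 had means of 3623, 176 and 16.8 in HT29, HCT116 and SW480 WT, and each step passed the test. SLC26A2 ran the other way, at 119, 583 and 1349, and ANPEP and GUCY2C were higher in SW480 than in both other lines. AADAC did not differ detectably between HT29 and HCT116 WT, at 24.6 and 23.0 (adjusted p = 0.781).

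A further list of 44 absorptive genes, of which 43 matched an identifier, was looked at beside the members. In HT29, 5 of 23 tested were higher in KO (1.9% of all genes) and none was lower, with a median log2 fold change of 0.56. They included KRT20, a keratin of differentiated surface cells, at 1542 to 5791 normalised counts in WT and 9565 to 21316 in KO (2.34 ± 0.46, adjusted p = 0.0361), ESPN, an actin bundler of microvilli (2.88 ± 0.52, adjusted p = 0.0257), and CEACAM7, an adhesion molecule of colonocytes (5.14 ± 0.89, adjusted p = 0.0215). CDH17, the liver-intestine cadherin, was at 0 to 2.96 in WT and 18.2 to 475 in KO (adjusted p = 0.0357), and it passed the filter through its KO libraries alone. In HCT116, 1 of 13 was a DEG by limma (8 at an unadjusted p under 0.05, and 3 each by edgeR and DESeq2), and it was lower in KO, against 1.89% of all genes. It was KRT20, at 58.2 to 104 in WT and at most 0.98 in KO, which passed the filter through its WT libraries alone. In SW480, 7 of 13 were higher and 1 was lower (10.7% and 6.76% of all genes), with a median of 1.09, and SLC4A4 and AQP1 passed the filter through their KO libraries alone. They included PDZK1, a scaffold for brush border transporters (5.03 ± 0.44, adjusted p = 8.3e-06), AQP1, a water channel (4.41 ± 0.29, adjusted p = 8.4e-07), SLC4A4, a sodium bicarbonate cotransporter (2.46 ± 0.50, adjusted p = 0.00218), and, lower in KO, XPNPEP2, a membrane aminopeptidase (−2.37 ± 0.44, adjusted p = 0.00142). The 4 HT29 calls for KRT20, ESPN, CEACAM7 and CDH17 were lost with the clone as a random effect (adjusted p = 0.0978, 0.151, 0.0822 and 0.0887).

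Of 18 regulators of absorptive differentiation, none of 11 tested was a DEG in HT29 by limma (3 at an unadjusted p under 0.05, 0 by edgeR and 1 by DESeq2). In HCT116 1 of 12 was higher and 1 lower, against 3.17% and 1.89% of all genes, and in SW480 5 of 12 were higher and 4 lower, against 10.7% and 6.76%. ELF3, an epithelial ETS factor, was higher in KO in HCT116, at 409 to 760 in WT and 2508 to 4010 in KO, and in SW480, at 49.5 to 56.8 and 602 to 625. In SW480 CDX2, the intestinal homeobox factor that is also among the identity genes, was lower, at 857 to 1333 in WT and 52.7 to 165 in KO, and MAF and CREB3L3 were at 1.84 to 6.85 and 0 to 2.94 in WT and 130 to 411 and 71.0 to 278 in KO, so that both passed the filter through their KO libraries alone. In HCT116 CREB3L3 was at 16.2 to 29.6 in WT and 4.76 to 7.54 in KO, and it passed through its WT libraries alone.

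Markers of neighbouring cell types moved beside the members. Of 11 goblet and secretory markers, 1 of 4 tested was a DEG in HT29 by limma (2 by edgeR and 3 by DESeq2), against 1.9% of all genes that were DEGs higher in KO. All 4 were at an unadjusted p under 0.05 there, with a median log2 fold change of 3.03, higher in KO. None of 1 was a DEG in HCT116 (1 at an unadjusted p under 0.05, 0 by edgeR or DESeq2), and 1 was higher and 1 lower of 2 in SW480 (10.7% and 6.76% of all genes). MUC2 passed the filter in SW480 through its KO libraries alone. AGR2, a disulfide isomerase of secretory cells, was at 675 to 2074 in HT29 WT and 13361 to 23166 in HT29 KO (3.82 ± 0.35, adjusted p = 9.5e-04), so that the summed level of the list was 1345 to 2352 in WT and 15536 to 25141 in KO libraries. Of 10 crypt stem cell markers, 4 of 8 were lower in HT29 by limma (0.402% of all genes), where edgeR called 2 and DESeq2 4. In HCT116 2 of 6 were lower and 1 higher (1.89% and 3.17%), and in SW480 4 of 6 were lower (6.76%). ASCL2 passed the filter in SW480 through its WT libraries alone. AXIN2, a negative regulator of WNT signalling and a target of it, was lower in KO in all 3 lines, by −3.70 ± 0.70, −5.25 ± 0.31 and −4.74 ± 0.15, and LGR5, the receptor that marks crypt base stem cells, was at 769 to 1151 in HT29 WT and 8.05 to 166 in HT29 KO. Of 6 hepatocyte markers, none of 2 and none of 1 were DEGs in HT29 and HCT116 (0 at an unadjusted p under 0.05, by edgeR or by DESeq2). In SW480 1 of 1 tested was higher in KO, against 10.7% of all genes. It was SERPINA1, an antiprotease that enterocytes also make (2.22 ± 0.24, adjusted p = 5.5e-05). In bulk RNA, more cells of a type and more RNA per cell cannot be told apart, and the part of these markers in the changes of the members was not tested.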

How the data were processed

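RNA was sequenced from 24 libraries, 2 WT and 2 KO clones of each of 3 lines in rounds A and B. The authors aligned the reads with STAR 2.7.5b to GRCh37, counted them per gene with featureCounts 2.0.1 and deposited signal values, which are counts divided by a size factor per library. The authors also deposited for each line a table of their own comparison (means, fold changes and p-values), which was not used here. Symbols and coordinates came from GENCODE 44 lifted to GRCh37. The library kit does not mark strand.

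Dividing by the value of 1 read gave whole reads, within 0.01, for 100% of values in each library. Depth was 22297049 to 29068378 reads per library, and the floor was 3 reads, which covers counting error only. Because the values are not counts, the test was limma 3.58.1 (R 4.3.3) with trend and robust variance on log2 of the value plus a pseudocount of 1, where fold changes of low genes are understated. The genes tested in a line reached a value of 10 in 4 or more of its 8 libraries, and p-values were adjusted over all of them. Differences between lines came from 1 fit of the 24 libraries with 6 groups and the same filter over 24. Replicates are 2 rounds of 2 clones, so that p-values measure the spread between these libraries. A block for the round was an alternative. Whether the round pairs the libraries was checked by correlating the A to B differences of pairs of clones across genes, and all 6 pairs passed 0.1 in HCT116 (0.182 to 0.374), 2 of 6 in HT29 and 1 of 6 in SW480. Other alternatives were edgeR 4.0.16 and DESeq2 1.42.0 on recovered reads, pseudocounts of 0.1 and 5, other filters, the clone as a random effect, clones summed, and each library and clone left out. The limma fit was tested on simulated data. Figures used Python 3.11.15 and matplotlib 3.10.9.

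All members were accounted for, DEGs were named with every library, lines with under 4 DEGs were filled to 4 with the next largest fold change, and at most 4 DEGs per further list and line were named. The members and lists were chosen with earlier results of these data known. Promoter windows came from RefSeq on GRCh38.p14, in which 23 members had an entry. Some results of the further lists and of the motif search are not reported here.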

Additional observations from a re-analysis of the deposited data

Results flagged for a closer look

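Among 26 groups of 4 libraries, for the members named with every library, 1 held a library far from the others, and chance gives about 1 in 20. It was PHGR1 in HT29 KO 38A, at 304 normalised counts against 818 to 881 in the other KO libraries. The KO effect differed between lines in 8 tests of the difference. VILL differed by 2.67 on the log2 scale between HT29 and HCT116, by 5.50 between HT29 and SW480 and by 2.83 between HCT116 and SW480, each with the KO effect of the line named first being the higher. AADAC differed by 3.54 between HT29 and HCT116. CA12 differed by −2.22 between HT29 and SW480 and by −3.69 between HCT116 and SW480, and CA13 by −2.94 and −2.91, with SW480 the higher.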

How the results depend on the processing

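HT29, HCT116 and SW480 had 4, 3 and 5 members that were DEGs. In HT29 the count was 7 with DESeq2, 2 with the clone as a random effect and 0 with the reads of each clone summed, and it ran from 2 to 6 when 1 library or 1 clone was left out. AADAC and PHGR1 were among the DEGs in each of those fits that left out a library or clone. In HCT116 it was 1 with summed clones and ran from 2 to 3 with a library or clone left out, and it was 3 without KO 47A. Without clone WT 6 the 3 were CA12, CA2 and DPP4, and AADAC was lost. In SW480 it was 3 when a value of at least 10 was required in every library, where only 5 members were tested, and ran from 4 to 5 with a library or clone left out. PLAC8 in SW480 fell below the filter when a KO library was left out. With the round as a replicate block the counts were 3, 3 and 5. The call for LGALS4 in HT29 was the one lost under it, and it changed no other call. Pairing of libraries by round was mixed in HT29 and SW480. Of 6 pairs of clones, 2 passed a correlation of 0.1 in HT29 (−0.309 to 0.424) and 1 in SW480 (−0.0411 to 0.127).

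Differences of the KO effect between lines numbered 8, and 7 or 8 under the 4 alternatives, and differences of WT level numbered 42 of 60 and 35 to 43. Over single members, 262 of 293 alternative values kept direction and call, 31 lost the call and none reversed. With 2 clones per genotype and genes near 10 normalised counts, small changes were not detectable. The cause of these differences between settings was not tested.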
